A study of Mus musculus with 18 samples.

Results

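The response of inguinal white fat to a shiftwork light schedule was set against that of epididymal white fat at ZT3, 3 h after lights-on in the regular cycle. For each gene the difference between shiftwork and control libraries was taken in inguinal fat (iWAT), and the same difference in epididymal fat (eWAT) was subtracted from it, on the log2 scale. Each difference was formed within the table of its own depot. The members are the 23410 gene symbols found in both tables, of which 13903 passed the filter on low counts and were tested. Of the 18 libraries of the series, 12 entered, in 4 groups of n = 3: iWAT shiftwork, iWAT control, eWAT shiftwork and eWAT control. All came from C57BL/6 mice. Each week of the shiftwork schedule held 4 days of a regular cycle, 12 h lit and 12 h dark, followed by 3 with light and dark reversed, over 24 weeks. Control mice stayed on the regular cycle throughout. The labels give neither the weekday of sampling nor whether libraries of a group came from separate animals, so the p-values measure the spread between these libraries, which may in part be technical. Sample numbers in the iWAT control labels, and in part the iWAT shiftwork labels, recur in labels of eWAT libraries from ZT12, which did not enter. Whether the depots share animals is not stated, and no pairing across depots was used.

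White fat stores triglyceride and secretes hormones such as leptin and adiponectin. Inguinal fat is a subcutaneous depot that can take on thermogenic adipocytes and surrounds a lymph node, and epididymal fat is a visceral depot that lies against the testis, epididymis and vas deferens. Most tissues hold a circadian clock in which CLOCK or NPAS2 pairs with ARNTL (BMAL1) at E-box sequences and drives the Per, Cry, Nr1d, Dbp, Tef and Ciart genes. The NR1D proteins repress Arntl and Nfil3 through ROR response elements, while DBP, TEF and HLF activate and NFIL3 represses D-box genes such as Per3. Arntl and Nfil3 therefore usually peak in antiphase to Dbp and Per3.

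Libraries held 28544338 to 55639501 reads in iWAT and 20352008 to 72276733 reads in eWAT, and control replicate 1 was the deepest in both depots. Adiponectin (Adipoq) stood at 872.6 scaled CPM or more in all 12 libraries, while the mesothelial markers Wt1 and Upk3b reached 5.47 CPM or more in every eWAT library and at most 0.188 CPM in any iWAT library. Scaled CPM are read counts in CPM after the scaling used in the fit, and levels are set side by side only within a depot because each table was normalized on its own. Several libraries carried RNA of other tissues. The B and plasma cell list summed to 38.9, 67 and 10 CPM in iWAT shiftwork libraries, against 1440, 2280 and 34.1 in iWAT controls. The skeletal muscle list summed to 67300, 930 and 190 CPM in iWAT shiftwork libraries, against 147, 97.6 and 85.4 in iWAT controls. In eWAT the vas deferens list summed to 6.01, 3.1 and 92 CPM in shiftwork libraries, against 11800, 14 and 12300 in controls, and the smooth muscle list to 824, 716 and 1060 CPM, against 14300, 834 and 10500. Spermatid markers summed to 6300 CPM in eWAT shiftwork replicate 3. Of 10 hepatocyte markers, 9, 1 and 9 were above 1 CPM in iWAT shiftwork libraries, against 1, 1 and 2 in iWAT controls. Their sums overlapped, at 82.8, 16 and 119 CPM against 31.7, 41.5 and 101. Of 12 pancreas markers, 5, 2 and 9 were above 1 CPM in iWAT shiftwork libraries, against 2, 2 and 2 in iWAT controls. The adipocyte list summed to 22500, 31400 and 22500 CPM in iWAT shiftwork libraries, against 19100, 13300 and 31600 in iWAT controls, and to 28200, 28900 and 10200 CPM in eWAT shiftwork libraries, against 16200, 25000 and 15200 in eWAT controls. The part of these tissues in the differences that follow was not tested. Values without eWAT control replicates 1 and 3 and eWAT shiftwork replicate 3 (the 3 eWAT libraries with tract or germ cell RNA), without iWAT control replicates 1 and 2 (lymphocyte RNA) or without iWAT shiftwork replicate 1 (muscle RNA) follow the results they moved most. Without the 3 eWAT libraries the only eWAT control left was replicate 2, against shiftwork replicates 1 and 2. Without the 2 iWAT controls the only one left was replicate 3, which had the highest adipocyte sum of the iWAT controls (31600 CPM). Values without either set therefore rest on a single control library in that depot. Without iWAT shiftwork replicate 1, the median iWAT difference of the skeletal muscle list was 1.73 in place of 4.19 (log2), so muscle RNA was not confined to that library. In such bulk tissue, fewer cells of a type and less RNA per cell cannot be told apart.

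**Figure D1:**
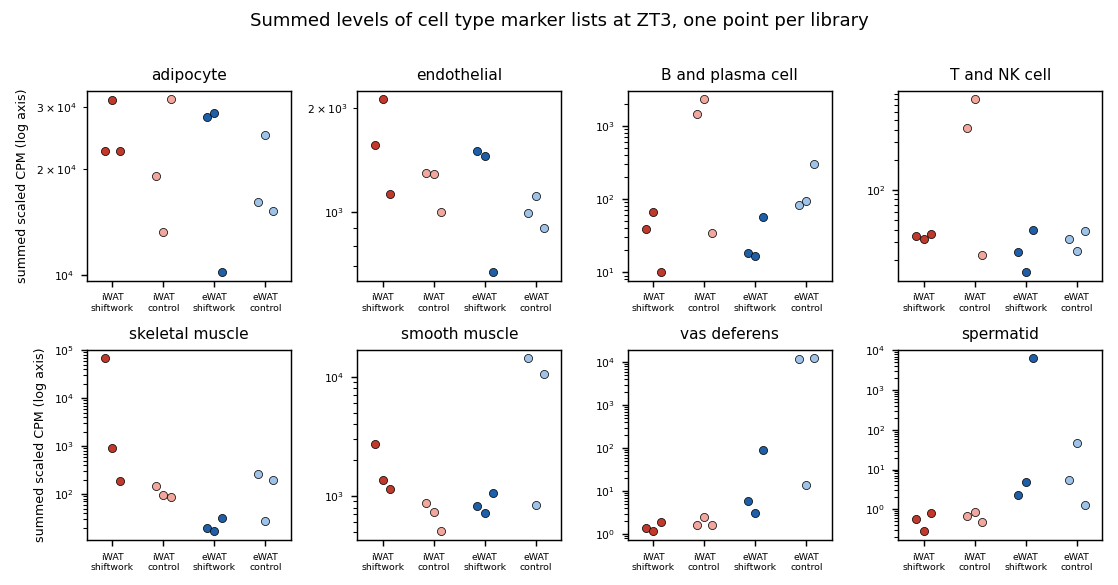
Summed scaled CPM (log axis) of 8 cell type marker lists in each ZT3 library, with iWAT left of eWAT and shiftwork left of control within each depot. Lymphocyte markers are high in 2 of the 3 iWAT controls, and spermatid markers in 1 eWAT shiftwork library. Skeletal muscle markers are highest in 1 iWAT shiftwork library and lie above the controls in all iWAT shiftwork libraries. Vas deferens and smooth muscle markers are high in 2 of the 3 eWAT controls.

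No gene passed an adjusted p of 0.05 for the difference between depots, and none passed for the shiftwork difference in iWAT or in eWAT alone (limma, Benjamini-Hochberg adjustment over 13903 genes, 0 of 13903 or 0% each). The smallest adjusted p was 0.156 for the depot difference, 0.176 for iWAT and 0.217 for eWAT. At an unadjusted p of 0.05, 899 genes passed for the depot difference, 512 with the higher shiftwork difference in iWAT and 387 with the lower, which is 6.47% of the genes tested. The same count was 1026 for iWAT (7.38%) and 819 for eWAT (5.89%). edgeR on counts and recovered reads likewise called 0 genes for all 3 comparisons, with 1519 genes at an unadjusted p of 0.05 for the depot difference. DESeq2 on the same reads called 159 genes for the depot difference (1.14%), 111 higher and 48 lower, of which 8 were smooth muscle markers. Leaving out iWAT control replicate 3 brought the limma calls for the depot difference to 135, leaving out eWAT control replicate 2 brought them to 55, and leaving out eWAT control replicate 1 brought them to 1. The typical gene showed a depot difference of 0.372 in size (median, log2) with a median SE of 0.435. Because no gene passed the main test, genes are described by their values in each library and by whether the libraries of the groups overlapped.

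By that description, shiftwork and control libraries did not overlap for 1094 genes higher (7.87%) and 638 lower (4.59%) under shiftwork in iWAT, and for 1021 genes higher (7.34%) and 635 lower (4.57%) in eWAT. Opposite directions without overlap in both depots were seen for 126 genes (0.906% of those tested). Of these, 71 were higher in iWAT and lower in eWAT, 6.49% of the genes higher in iWAT and 11.2% of those lower in eWAT. The other 55 were lower in iWAT and higher in eWAT, 8.62% of the genes lower in iWAT and 5.39% of those higher in eWAT. The same direction in both depots was seen for 88 genes (0.633%), 69 of them higher in both and 19 lower in both. The 69 were 6.31% of the genes higher in iWAT and 6.76% of those higher in eWAT. The 19 were 2.98% of the genes lower in iWAT and 2.99% of those lower in eWAT. In iWAT, 954 genes stood higher (87.2% of that class) and 564 lower (88.4%) without overlap while the eWAT libraries overlapped. In eWAT, 897 stood higher (87.9%) and 545 lower (85.8%) while the iWAT libraries overlapped. Of all genes tested, 12.5% were without overlap in iWAT and 11.9% in eWAT, so the shares for a single depot lie near those of all genes. With a gap of at least 0.5 on the log2 scale (1.41-fold) between the nearest libraries in each depot, 3 genes stood in opposite directions (Gprc5a, Adamts4 and Acta1) and 2 in the same direction (AA467197 and Hfe2). Whatever the other depot did, 129 genes (0.928%) met that gap in iWAT and 114 (0.82%) in eWAT. The 3 opposite genes were 3.49% of those higher in iWAT and 6.82% of those lower in eWAT at this gap. The 2 higher in both were 2.33% of those higher in iWAT and 2.86% of those higher in eWAT. Across genes, the shiftwork differences of the depots had a Pearson r of 0.0499 and the same sign for 48.6% of 13903 genes, where genes are not independent replicates.

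**Figure D2:**
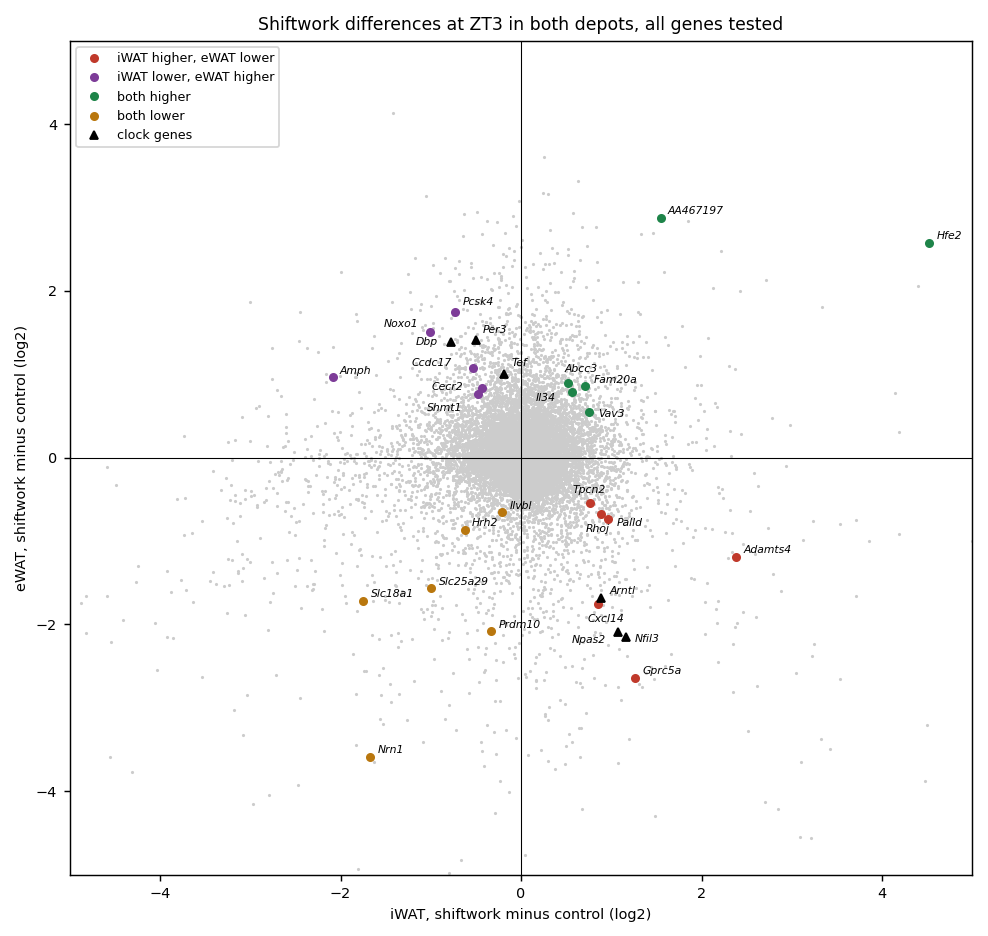
Shiftwork minus control (log2) in iWAT on the horizontal axis and in eWAT on the vertical axis for the 13903 genes tested (grey), of which 12 lie outside the axes at 5. Coloured points are the genes named in each direction pair and triangles are clock genes. The cloud shows no slope (r = 0.0499), Adamts4 and Gprc5a lie at the lower right with Nfil3, Arntl and Npas2, and Per3, Dbp and Tef lie at the upper left.

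Clock genes had medians of opposite sign in the depots. The first list held 5 genes, the activators Arntl, Clock and Npas2 and the repressors Nfil3 and Cry1. In iWAT, all 5 had a fitted difference above 0, with a median of 0.88. In eWAT 4 of the 5 were below 0, with a median of -1.68, and Cry1 stood at 0.06. The second list, 14 further repressors and outputs, ran the other way, with 11 below 0 in iWAT (median -0.23) and 13 above 0 in eWAT (median 0.62). The median depot difference was 2.56 for the 5 genes and -0.79 for the 14, beside 0.01 over all genes tested. None of the 19 passed the adjusted test, and 3 of the first list (higher) and 4 of the second (lower) had an unadjusted p under 0.05, against backgrounds of 3.68% and 2.78%. Without the 3 eWAT libraries named above, which leaves control replicate 2 as the only eWAT control, the medians were 3.44 and -1.42. The iWAT median of the 14 was -0.55 without the 2 iWAT controls.

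Promoters of 3 of these genes are shown because their motifs belong to the opposed branches of the loop. They are RefSeq windows on GRCm38.p6 from 250 bases before to 50 bases after a start, with motif matches on either strand in capitals. Nfil3 (chr13:52980990-52981289, minus strand) and the second Arntl start (chr7:113207261-113207560, plus strand) hold the ROR element NNTAGGTCA or its reverse complement, at positions -12 and 28 from the start. Per3 (chr4:151044616-151044915, minus strand) holds the D-box TTATGNAA in 2 places.
Nfil3: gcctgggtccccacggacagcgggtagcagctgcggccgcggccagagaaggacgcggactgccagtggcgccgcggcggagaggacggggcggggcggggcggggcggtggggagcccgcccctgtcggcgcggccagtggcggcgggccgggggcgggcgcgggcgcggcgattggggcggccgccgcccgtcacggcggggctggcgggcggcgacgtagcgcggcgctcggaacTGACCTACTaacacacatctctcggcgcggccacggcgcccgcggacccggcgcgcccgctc
Arntl: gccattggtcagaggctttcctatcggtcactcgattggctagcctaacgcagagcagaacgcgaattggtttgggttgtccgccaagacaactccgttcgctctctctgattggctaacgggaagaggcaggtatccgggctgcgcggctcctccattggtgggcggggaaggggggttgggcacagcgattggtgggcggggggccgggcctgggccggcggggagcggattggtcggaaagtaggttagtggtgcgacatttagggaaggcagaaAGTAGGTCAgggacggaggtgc
Per3: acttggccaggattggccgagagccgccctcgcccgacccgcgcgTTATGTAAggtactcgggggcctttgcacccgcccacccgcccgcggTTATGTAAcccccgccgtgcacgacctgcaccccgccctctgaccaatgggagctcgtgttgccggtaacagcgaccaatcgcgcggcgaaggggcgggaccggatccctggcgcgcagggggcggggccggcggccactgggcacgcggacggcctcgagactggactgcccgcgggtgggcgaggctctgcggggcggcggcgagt
Of 32851 promoters of this length, 2.58% hold the ROR element, 3.38% the D-box and 7.15% the E-box CACGTG. All 5 genes of the first clock list and 11 of the 14 in the second had a promoter in the table. The ROR element was found in 2 of the 5 (Arntl and Nfil3) and 0 of the 11, the D-box in 0 of the 5 and 2 of the 11 (Per1 and Per3), and the E-box in 1 of the 5 (Cry1) and 4 of the 11 (Per1, Bhlhe41, Ciart and Tef). A match describes the letters of the window and is not evidence of binding.

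Nfil3, the D-box repressor, was measured at 18.1, 21.7 and 16.5 scaled CPM in iWAT shiftwork libraries and 7.09, 9.44 and 8.499 in iWAT controls, without overlap. In eWAT it stood at 4.76, 12.7 and 5.18 CPM in shiftwork libraries and 11.6, 48.7 and 49 in controls, where shiftwork replicate 2 was above control replicate 1. The fitted differences (log2, ± SE) were 1.16 ± 0.53 in iWAT and -2.15 ± 0.53 in eWAT, and their difference of 3.32 ± 0.75 had an adjusted p of 0.592 in limma and 0.00209 in DESeq2. For iWAT the authors' deposited table gives Nfil3 an adjusted p of 0.00179. Of the 18567 symbols in both tables that have such a value, 343 (1.85%) lie under 0.05. Fosl2, Thbs1, Apln and Lrg1, described below, are also among them. Arntl, the partner of CLOCK, stood at 16.8, 25.8 and 20.4 CPM in iWAT shiftwork libraries against 11.97, 19.1 and 6.17 in iWAT controls, with overlap. In eWAT it stood at 4.91, 16.2 and 9.601 CPM in shiftwork libraries and 23.6, 52.7 and 20.5 in controls, without overlap. Between depots Arntl differed by 2.56 ± 0.74. Npas2, the paralog of CLOCK, stood at 1.85, 2.48 and 2.56 CPM in iWAT shiftwork libraries and 1.05, 0.931 and 1.22 in iWAT controls, without overlap, and at 0.241, 1.04 and 4.42 CPM in eWAT shiftwork libraries and 3.001, 10.1 and 3.35 in eWAT controls, which overlapped. Clock itself had differences of 0.37 ± 0.33 in iWAT and -0.62 ± 0.33 in eWAT, and those of Cry1 lay near 0 in both (0.22 ± 0.40 and 0.06 ± 0.40).

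Among the repressors and outputs, Per3 stood at 59.4, 65.1 and 59.8 CPM in iWAT shiftwork libraries and 99.3, 51.6 and 129 in iWAT controls, within the range of the controls. In eWAT it stood at 139.8, 109.5 and 60.9 CPM in shiftwork libraries and 71.2, 18.5 and 37.6 in controls, and shiftwork replicate 3 lay among the controls. The depot difference of Per3 was -1.92 ± 0.69. Dbp, a D-box activator and direct target of CLOCK and ARNTL, stood at 123, 40.6 and 144 CPM in iWAT shiftwork libraries and 172, 102 and 204 in iWAT controls, and at 98.2, 80.5 and 49.7 in eWAT shiftwork libraries and 64.2, 10.7 and 31.7 in eWAT controls. These ranges overlapped in both depots, and the depot difference of Dbp was -2.16 ± 0.91. Tef, another D-box activator, overlapped in iWAT, with 258, 159 and 216 CPM in shiftwork libraries and 239, 182 and 299.7 in controls. In eWAT the Tef libraries did not overlap (283, 253 and 161 CPM under shiftwork and 159, 71.6 and 125 in controls). Nr1d2, a heme-binding repressor of Arntl, likewise stood higher without overlap in eWAT shiftwork libraries (148, 106 and 89.7 CPM against 85.4, 35.2 and 71.3 in eWAT controls). Its paralog Nr1d1 differed by -0.75 ± 0.38 in iWAT and 0.06 ± 0.38 in eWAT. Per1, a negative limb gene that also answers to glucocorticoid, stood above 0 in both depots (0.53 ± 0.25 in iWAT and 0.23 ± 0.25 in eWAT). Bhlhe40, a repressor of E-box genes, stood below 0 in both (-0.11 ± 0.40 and -0.76 ± 0.40). Usp2, a clock-controlled ubiquitin protease, rested on single libraries in each depot, with 81.6, 18.6 and 15.2 CPM in iWAT shiftwork and 17.2, 20.8 and 236 CPM in eWAT shiftwork libraries. Those were the library with muscle RNA in iWAT and the library with spermatid RNA in eWAT. The remaining genes (Per2, Cry2, Bhlhe41, Ciart, Hlf and Wee1) had depot differences from -1.67 to -0.38, with SE of 0.35 to 0.91. Without the 3 eWAT libraries the depot difference was -3.25 for Per3, -3.83 for Dbp, -2.09 for Tef, -2.11 for Nr1d2, -1.56 for Nr1d1 and -2.95 to -0.47 for the remaining genes, while that of Npas2 was 5.29 in place of 3.17. A clock score, the mean log2(CPM + 1) of the 5 genes minus that of the 14, was -1.92, -0.895 and -1.78 in iWAT shiftwork libraries and -2.42, -1.84 and -2.73 in iWAT controls, which overlapped. In eWAT it was -2.60, -1.81 and -1.93 in shiftwork libraries and -1.32, 0.68 and -0.711 in controls, all above the shiftwork libraries. The highest score, 0.68, was that of control replicate 2, the only eWAT control kept when the 3 eWAT libraries are left out.

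**Figure D3:**
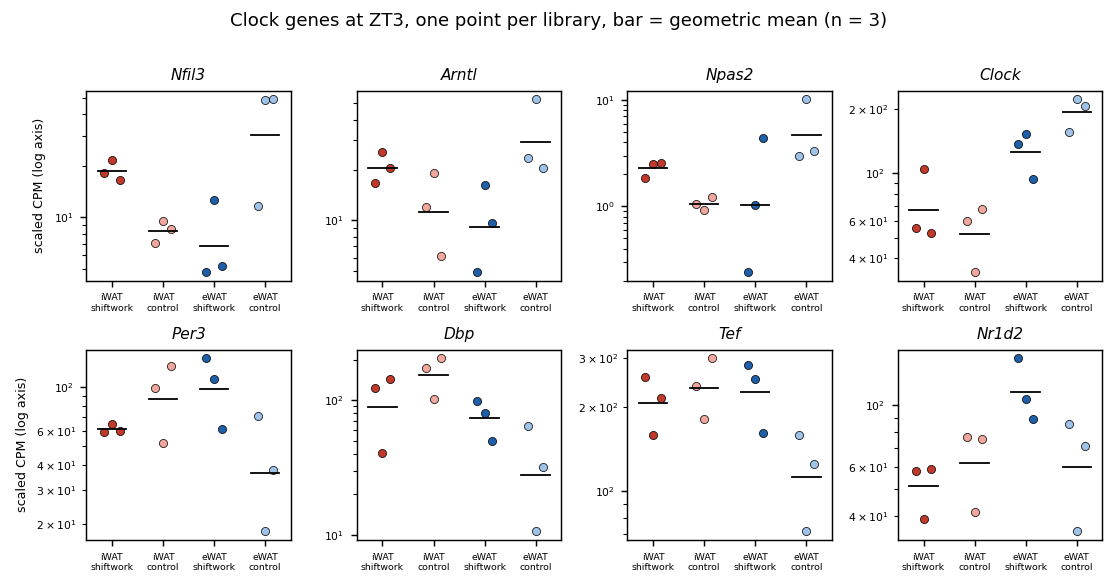
Scaled CPM (log axis) of 8 clock genes in each ZT3 library, iWAT left of eWAT and shiftwork left of control. Points are libraries and bars geometric means of n = 3. Nfil3, Arntl and Npas2 have higher means under shiftwork in iWAT, where Arntl overlaps, and lower means in eWAT, where Nfil3 and Npas2 overlap. Per3, Dbp, Tef and Nr1d2 have lower means in iWAT, where all overlap, and higher means in eWAT, where Per3 and Dbp overlap.

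The gap rule named 6 genes as higher in iWAT and lower in eWAT under shiftwork. Adamts4, a secreted metalloprotease that cleaves aggrecan and versican (chr1:171250422-171259922 on GRCm38, per the deposited eWAT table and the submitters' processing notes), had the smallest p of all genes. It stood at 7.61, 11.7 and 16.5 CPM in iWAT shiftwork libraries and 2.24, 1.99 and 2.23 in iWAT controls. In eWAT it stood at 1.59, 1.53 and 1.997 CPM in shiftwork libraries and 3.102, 4.66 and 4.13 in controls. The lowest iWAT shiftwork library was above all iWAT controls, and the highest eWAT shiftwork library was below all eWAT controls. Its fitted differences were 2.39 ± 0.34 in iWAT and -1.19 ± 0.34 in eWAT, and the depot difference of 3.58 ± 0.48 had an adjusted p of 0.156 in limma and 5.47e-09 in DESeq2. The authors' deposited table gives Adamts4 an adjusted p of 2.96e-07 for iWAT. For the rest of the 6 it gives 0.0141 (Tpcn2), 0.097 (Gprc5a), 0.103 (Palld), 0.169 (Rhoj) and 0.183 (Cxcl14). Without the 3 eWAT libraries the depot difference was 3.95.

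Gprc5a, an orphan receptor induced by retinoic acid, stood at 1.39, 2.37 and 1.89 CPM in iWAT shiftwork libraries and 0.876, 0.803 and 0.592 in iWAT controls, and at 2.17, 1.53 and 1.74 CPM in eWAT shiftwork libraries and 15.2, 3.78 and 25.7 in eWAT controls. Its 2 highest libraries were the eWAT controls with vas deferens RNA, and without the 3 eWAT libraries its depot difference was 2.31 in place of 3.91 ± 0.86. Tpcn2, an endolysosomal cation channel, had narrow groups, at 41.9, 35.5 and 46.9 CPM in iWAT shiftwork libraries against 23.5, 24.7 and 24.3 in iWAT controls, and 18.7, 19.9 and 20.5 CPM in eWAT shiftwork libraries against 25.1, 35.1 and 27.3 in eWAT controls. That gave a depot difference of 1.32 ± 0.23. Rhoj, a small GTPase of endothelial cells, stood at 59.6, 63.3 and 95.3 CPM in iWAT shiftwork libraries against 39.7, 30.6 and 47.3 in iWAT controls and at 35.98, 36.8 and 29.2 CPM in eWAT shiftwork libraries against 55.2, 45.5 and 62.3 in eWAT controls. The depot difference of Rhoj was 1.55 ± 0.32. Palld, an actin-associated scaffold, had a depot difference of 1.70 ± 0.35, and 1.39 without the 3 eWAT libraries. Of those, control replicates 1 and 3 had the high smooth muscle sums (14300 and 10500 CPM). Cxcl14, a chemokine, stood at 102, 65.9 and 76.4 CPM in iWAT shiftwork libraries against 45.3, 55.6 and 34.8 in iWAT controls and at 5.63, 5.18 and 5.99 CPM in eWAT shiftwork libraries against 16.8, 10.7 and 38.1 in eWAT controls. Its depot difference was 2.61 ± 0.55, and 1.83 without the 3 eWAT libraries. DESeq2 put all 6 genes under an adjusted p of 0.05, with 0.00266 for Rhoj as the largest, beside 1.14% of all genes tested. Limma's adjusted p ran from 0.156 to 0.592. The 6 were chosen for their gaps in these same libraries, which favours small p-values, so the DESeq2 values add no support. That limit also holds for the DESeq2 values of other genes named for gaps or small p. Acta1, skeletal muscle actin, also met the gap of 0.5, with 10660, 127 and 47.4 CPM in iWAT shiftwork libraries and 33.4, 12.4 and 13.3 in iWAT controls, and 8.66, 7.195 and 6.12 in eWAT shiftwork libraries and 125, 21.3 and 114 in eWAT controls. It is a muscle marker. Like the skeletal muscle list, it was highest in shiftwork replicate 1 in iWAT and in control replicates 1 and 3 in eWAT.

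**Figure D4:**
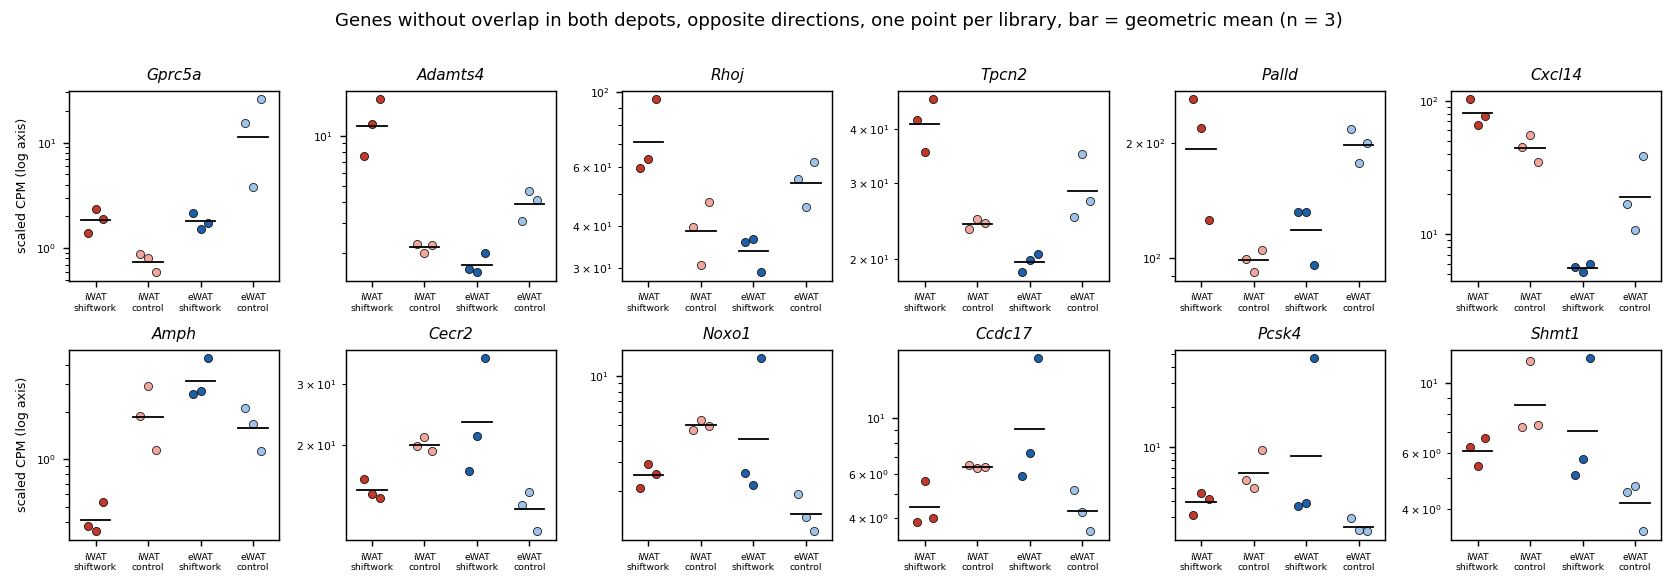
Scaled CPM (log axis) of the 12 genes named for opposite directions, with iWAT left of eWAT and shiftwork left of control. Points are libraries and bars geometric means of n = 3. In the upper row all iWAT shiftwork libraries lie above the iWAT controls and all eWAT shiftwork libraries below the eWAT controls, and the lower row is the reverse, with 1 high eWAT shiftwork library for Noxo1, Ccdc17, Pcsk4 and Shmt1.

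The 6 genes named as lower in iWAT and higher in eWAT had narrower gaps. The smaller of their 2 gaps ran from 0.114 to 0.292 on the log2 scale, and that of the 6 genes above from 0.246 to 0.652. Amph, an endocytic adaptor known from nerve terminals, stood at 0.377, 0.349 and 0.534 CPM in iWAT shiftwork libraries and 1.88, 2.92 and 1.15 in iWAT controls, and at 2.597, 2.71 and 4.38 CPM in eWAT shiftwork libraries and 2.12, 1.67 and 1.13 in eWAT controls. Its depot difference was -3.05 ± 0.66 (adjusted p 0.592 in limma, 0.00219 in DESeq2). Cecr2, a bromodomain chromatin factor, stood at 15.98, 14.5 and 14.1 CPM in iWAT shiftwork libraries and 19.9, 21.2 and 19.3 in iWAT controls, and at 16.8, 21.2 and 35.6 CPM in eWAT shiftwork libraries and 13.5, 14.7 and 11.3 in eWAT controls. Noxo1, the organizer subunit of an NADPH oxidase, stood at 2.07, 2.89 and 2.53 CPM in iWAT shiftwork libraries against 4.68, 5.395 and 4.95 in iWAT controls, and at 2.55, 2.17 and 12.8 CPM in eWAT shiftwork libraries against 1.91, 1.37 and 1.13 in eWAT controls. Pcsk4, a proprotein convertase of sperm, stood at 3.66, 3.84 and 46.1 CPM in eWAT shiftwork libraries and 2.95, 2.404 and 2.36 in eWAT controls. The highest eWAT library of Cecr2, Noxo1, Ccdc17, Pcsk4, Shmt1 and Amph was in each case shiftwork replicate 3, which carried the spermatid RNA. Without the 3 eWAT libraries, the depot difference was -1.36 for Pcsk4 in place of -2.48 ± 1.13, -1.77 for Noxo1 in place of -2.51 ± 0.82 and -0.68 for Shmt1, a folate cycle enzyme, in place of -1.24 ± 0.49. For Cecr2 it was -0.80 in place of -1.27 ± 0.35. That of Amph was -2.74 and that of Ccdc17 -1.16, so all kept their sign.

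Of genes in the same direction in both depots, Fam20a, a pseudokinase of the secretory pathway, was among the most even. It stood at 17.5, 14.9 and 17.6 CPM in iWAT shiftwork libraries and 9.91, 8.96 and 11.7 in iWAT controls, and at 11.5, 11.9 and 17.8 in eWAT shiftwork libraries and 8.03, 6.87 and 7.43 in eWAT controls. Its differences were 0.71 ± 0.21 in iWAT and 0.86 ± 0.21 in eWAT. Il34, a ligand of the macrophage receptor CSF1R, stood at 25.4, 26.98 and 29.8 CPM in iWAT shiftwork libraries and 20.1, 14.9 and 20.9 in iWAT controls, and at 22.9, 21.3 and 21.2 CPM in eWAT shiftwork libraries and 13.3, 15.01 and 9.99 in eWAT controls. Abcc3, an exporter of organic anions, had differences of 0.52 ± 0.23 in iWAT and 0.89 ± 0.23 in eWAT, and Vav3, a guanine nucleotide exchange factor, of 0.75 ± 0.20 and 0.55 ± 0.20. The other 2 named as higher in both rested in part on libraries that stood apart. Hfe2, a BMP co-receptor of muscle and liver, stood at 303, 3.87 and 0.925 CPM in iWAT shiftwork libraries and 0.438, 0.546 and 0.314 in iWAT controls, and its highest value was in the library with muscle RNA. AA467197 stood at 1.696, 1.57 and 2.81 CPM in iWAT shiftwork libraries and 0.657, 0.707 and 0.592 in iWAT controls, and at 2.21, 1.28 and 37.4 CPM in eWAT shiftwork libraries and 0.684, 0.5397 and 0.6395 in eWAT controls, highest in the library with spermatid RNA.

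Lower in both depots stood Slc25a29, a mitochondrial carrier of basic amino acids, at 3.62, 3.03 and 3.17 CPM in iWAT shiftwork libraries against 6.07, 9.73 and 4.702 in iWAT controls and 3.32, 3.15 and 2.21 CPM in eWAT shiftwork libraries against 9.56, 5.102 and 12.6 in eWAT controls. Nrn1, a secreted neuritin, stood at 1.997, 3.45 and 4.09 CPM in iWAT shiftwork libraries against 7.198, 10.2 and 12.6 in iWAT controls and 0.577, 0.542 and 0.892 CPM in eWAT shiftwork libraries against 25.04, 1.13 and 19.8 in eWAT controls. Its high eWAT values were those of the controls with vas deferens RNA, as were those of Prdm10 (7.36, 6.9 and 5.65 CPM in eWAT shiftwork libraries, against 28.2, 8.59 and 91.3 in eWAT controls). Slc18a1, a vesicular amine transporter, differed by -1.75 ± 0.64 in iWAT and -1.72 ± 0.64 in eWAT, and Hrh2, the histamine H2 receptor, by -0.63 ± 0.34 and -0.87 ± 0.34. Ilvbl had the smallest gaps of the 6, with differences of -0.21 ± 0.19 and -0.65 ± 0.19. The depot difference of all 12 genes named for the same direction lay within 2 SE of 0 (adjusted p from 0.766 to 0.994).

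Genes were also named for a gap in iWAT with an eWAT difference under 0.25 in size. Lrg1, a secreted glycoprotein, stood at 766, 525 and 669 CPM in iWAT shiftwork libraries against 275, 309.8 and 255 in iWAT controls, a difference of 1.21 ± 0.31, while eWAT differed by 0.06 ± 0.31. For Lrg1 the depot difference was 1.15 ± 0.44, and 1.83 without the 3 eWAT libraries. Afap1l2, a signalling adaptor, had the widest gap of these, with 28.7, 23.4 and 21.3 CPM in iWAT shiftwork libraries and 11.9, 10.6 and 12.1 in iWAT controls. The depot difference of Afap1l2 was 1.31 ± 0.31. Hspb1, a small heat shock protein, stood at 24.5, 21.7 and 49.1 CPM in iWAT shiftwork libraries and 13.7, 10.3 and 10.2 in iWAT controls, with a depot difference of 1.38 ± 0.40. The endothelial genes Apold1 and Gja5 and the glycogen-binding Stbd1 differed by 1.18, 1.08 and 1.23 in iWAT, with SE of 0.29 to 0.36. Lower in iWAT stood the zinc finger genes Zfp882 (-0.96 ± 0.30) and Zfp113 (-0.63 ± 0.20), Tceanc (-0.74 ± 0.23), the mitochondrial transcription factor Mterf1a (-0.82 ± 0.38), which has a close paralog that could share its reads, and the chemokine scavenger Ackr4 (-1.93 ± 0.74). Myb, a transcription factor of blood progenitors, stood at 1.09, 1.19 and 1.74 CPM in iWAT shiftwork libraries and 13.6, 17.4 and 2.47 in iWAT controls, highest in the controls with lymphocyte RNA. For Myb the depot difference was -2.51 ± 1.65, and -0.76 without those 2 controls or -0.83 without the 3 eWAT libraries. In limma the depot difference of all 12 genes had an adjusted p from 0.592 to 0.776, so a response in iWAT alone was not shown for any of them.

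The same rule was applied to gaps in eWAT. Npas4, an activity-dependent transcription factor, stood at 1.66, 1.36 and 0.9604 CPM in iWAT shiftwork libraries and 1.16, 1.12 and 1.39 in iWAT controls, and at 1.44, 1.13 and 1.23 CPM in eWAT shiftwork libraries and 5.04, 4.86 and 6.79 in eWAT controls, the widest gap downward. Its differences were 0.08 ± 0.36 in iWAT and -2.09 ± 0.36 in eWAT, and the depot difference of 2.17 ± 0.51 had an adjusted p of 0.592 in limma and 0.000931 in DESeq2. Acsl4, an acyl-CoA synthetase that prefers arachidonate, stood at 61.7, 51.7 and 42.1 CPM in eWAT shiftwork libraries and 171, 87.5 and 287 in eWAT controls, with a depot difference of 1.81 ± 0.52 that was 0.78 without the 3 eWAT libraries. Dusp5, a phosphatase of ERK, was spread in iWAT, at 4.296, 3.69 and 10.9 CPM in shiftwork libraries and 7.98, 19.2 and 1.81 in controls. Dusp5 in eWAT was measured at 1.25, 0.493 and 2.76 CPM in shiftwork libraries and 21.8, 6.38 and 43 in controls. Stard4, a cholesterol transfer protein, stood at 12.1, 13.1 and 14.6 CPM in eWAT shiftwork libraries and 24.8, 20.6 and 30.2 in eWAT controls. Lrtm1 and Actg1 were also named, and Actg1 has many near-identical copies, so its counts are uncertain. Pmepa1, a TGF-beta target that restrains Smad signalling, overlapped in iWAT (794, 699 and 349.5 CPM under shiftwork and 684, 565 and 443 in controls). In eWAT it stood higher, at 216, 347 and 200.8 CPM in shiftwork libraries and 72.1, 117 and 70.2 in controls, and its depot difference was -1.50 ± 0.50. Tmem86a, a lysoplasmalogenase, stood at 23.6, 20.7 and 20.3 CPM in eWAT shiftwork libraries and 11.1, 7.46 and 6.84 in eWAT controls, with a depot difference of -1.46 ± 0.41, and -0.86 without the 2 iWAT controls. Dnajc28, a chaperone cofactor, differed by 0.93 ± 0.27 in eWAT. Lrrc36 and Mfsd7c peaked in the library with spermatid RNA (48.4 and 20.8 CPM). With the 3 eWAT libraries left out the depot difference was -0.76 for Lrrc36 in place of -2.94 ± 1.38, and -1.04 for Mfsd7c in place of -1.88 ± 0.93.

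Gene lists were described by counts and medians, and no member of any of them passed the adjusted test for the depot difference. Over all genes tested, the median difference was 0.04 in iWAT, with 54.4% above 0, and 0.00432 in eWAT, with 50.6% above 0. Libraries did not overlap for 7.87% (higher) and 4.59% (lower) of all genes in iWAT and for 7.34% and 4.57% in eWAT, which is the background for the counts without overlap below. Of the 28 extracellular matrix genes, all 28 stood above 0 in iWAT, with a median of 0.90, and 9 did not overlap, all higher, beside 7.87% of all genes. In eWAT 16 of the 28 stood above 0, with a median of 0.11, and 1 did not overlap. The depot difference was above 0 for 26 of the 28, beside 50.9% of all genes tested (median 0.84, and 0.31 without the 2 iWAT controls with lymphocyte RNA). Thbs1, a matricellular regulator of TGF-beta, stood at 157, 165 and 254 CPM in iWAT shiftwork libraries against 54.2, 44.9 and 24.4 in iWAT controls, and at 472, 238 and 109 CPM in eWAT shiftwork libraries against 175, 675 and 671 in eWAT controls. The basement membrane collagens Col4a1 and Col4a2 stood higher without overlap in iWAT (0.81 ± 0.26 and 0.84 ± 0.25) and overlapped in eWAT (-0.38 ± 0.26 and -0.26 ± 0.25). The 8 progenitor and fibroblast markers had medians of 0.83 in iWAT and 0.10 in eWAT. Without the 2 iWAT controls their iWAT median was 0.02, and that of the matrix list 0.41. The 16 TGF-beta signalling genes had medians of 0.10 in iWAT and -0.12 in eWAT. The iWAT median was -0.08 without the muscle library, -0.04 with scaling by total reads and 0.36 without the 2 iWAT controls. Ctgf, a matricellular target of TGF-beta and YAP, differed by 1.46 ± 0.48 in iWAT and -0.39 ± 0.48 in eWAT.

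The immediate early, glucocorticoid-responsive, heat shock and acute phase lists had medians above 0 in iWAT and below 0 in eWAT, while those of the ER stress and interferon-response lists were above 0 in both. Of 25 immediate early genes, 14 stood above 0 in iWAT (median 0.26, 6 higher and 0 lower without overlap) and 23 below 0 in eWAT (median -0.91, 1 higher and 6 lower without overlap). The iWAT median of this list was 0.07 without the muscle library and 0.60 without the 2 iWAT controls, and the eWAT median -1.34 without the 3 eWAT libraries. Fosl2, an AP-1 subunit, stood at 117, 104 and 114 CPM in iWAT shiftwork libraries against 55.7, 49.97 and 54.4 in iWAT controls, and at 49.5, 61.9 and 39.4 CPM in eWAT shiftwork libraries against 65.9, 172 and 184 in eWAT controls. Neither depot overlapped, and the depot difference was 2.43 ± 0.47 (adjusted p 0.578 in limma, 0.000212 in DESeq2). Egr2, a zinc finger factor, differed by 0.27 ± 0.52 in iWAT and by -3.08 ± 0.52 in eWAT, where it stood at 5.05, 2.32 and 6.42 CPM in shiftwork libraries and 15.98, 47.2 and 61.1 in controls. Dusp1, the MAP kinase phosphatase that glucocorticoid also induces, differed by 0.48 ± 0.22 in iWAT and -0.72 ± 0.22 in eWAT, without overlap in either.

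The 18 glucocorticoid-responsive genes had medians of 0.43 in iWAT, with 14 above 0 and 5 higher without overlap, and -0.41 in eWAT, with 13 below 0 and 1 higher and 1 lower without overlap. Leaving out the 2 iWAT controls took the iWAT median to 0.24, and the depot median to 0.37 in place of 0.75. Cdkn1a, the cell cycle inhibitor p21, stood at 83.02, 115 and 103 CPM in iWAT shiftwork libraries against 30.8, 59.9 and 33.5 in iWAT controls, and at 45.8, 76.4 and 33.1 CPM in eWAT shiftwork libraries against 64.5, 231 and 219 in eWAT controls. The iWAT groups did not overlap and the eWAT groups did, through control replicate 1. Errfi1, a feedback inhibitor of EGF receptor signalling, had a depot difference of 2.79 ± 0.84. Of 17 heat shock genes, 16 stood above 0 in iWAT (median 0.34, 5 higher without overlap) and 13 below 0 in eWAT (median -0.35, 3 lower without overlap). The eWAT median of these was -0.21 without the 3 eWAT libraries. Bag3, a co-chaperone, was without overlap in both, at 127, 98.5 and 111 CPM in iWAT shiftwork libraries against 69.7, 61.3 and 91.01 in iWAT controls and 81.7, 88.1 and 61.4 CPM in eWAT shiftwork libraries against 168, 94.8 and 149 in eWAT controls. Its depot difference of 1.42 ± 0.34 was 0.77 without the 3 eWAT libraries. Cirbp, a cold-inducible RNA-binding protein, stood at 43.6, 48.1 and 28.7 CPM in iWAT shiftwork libraries and 82.9, 108 and 60.3 in iWAT controls, and overlapped in eWAT. Of the 17 ER stress genes, Atf4, the transcription factor of the integrated stress response, was without overlap in both depots, with differences of 0.33 ± 0.19 in iWAT and -0.78 ± 0.19 in eWAT. The list had medians of 0.31 in iWAT and 0.01 in eWAT, the second -0.16 without the 3 eWAT libraries. The iWAT median was 0.52 without the 2 iWAT controls and 0.49 without the muscle library. In iWAT the list summed to 2360, 2310 and 5010 CPM in shiftwork libraries and 2310, 2340 and 2070 in controls, highest in shiftwork replicate 3.

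Of the 15 acute phase and cytokine genes tested, 11 stood above 0 in iWAT (median 0.76, 5 higher without overlap) and 11 below 0 in eWAT (median -0.60, 2 lower without overlap). The medians were 1.43 in iWAT without the 2 iWAT controls and -1.02 in eWAT without the 3 eWAT libraries. In iWAT shiftwork replicates 1 and 3, 9 of 10 hepatocyte markers were above 1 CPM, and the part of such RNA in this list was not tested. Ccl2, a chemokine that recruits monocytes, stood at 22.2, 16.5 and 108 CPM in iWAT shiftwork libraries against 8.03, 8.09 and 4.18 in iWAT controls, and at 7.12, 8.67 and 6.71 CPM in eWAT shiftwork libraries against 7.53, 56.3 and 61.5 in eWAT controls. In eWAT, control replicate 1 lay among the shiftwork libraries. The depot difference of Ccl2 was 4.38 ± 1.18 (adjusted p 0.764 in limma, 0.000931 in DESeq2), and Ccl7, its neighbour in function, had 3.97 ± 1.35. In iWAT Ccl7 stood at 17.3, 11.3 and 147 CPM in shiftwork libraries and 8.62, 8.575 and 4.32 in controls. Shiftwork replicate 3 was the highest iWAT library for both genes. Of 21 macrophage genes, 15 stood above 0 in iWAT and 17 in eWAT, with medians of 0.52 and 0.20. Those medians were 0.23 in iWAT without the 2 iWAT controls and 0.11 in eWAT without the 3 eWAT libraries. Timd4, a phosphatidylserine receptor of resident macrophages, ran against its list in iWAT with 8.33, 5.93 and 5.05 CPM in shiftwork libraries and 103, 182 and 9.82 in controls. Its depot difference was -3.38 ± 1.22, and -0.85 without the 2 iWAT controls with lymphocyte RNA. The 7 MHC class II genes stood below 0 in iWAT without exception (median -0.96) and above 0 in eWAT without exception (median 0.45), where 4 were higher without overlap. H2-Aa, an MHC class II chain, stood at 413, 317 and 314 CPM in iWAT shiftwork libraries against 819.9, 1482 and 259 in iWAT controls, and at 302, 259.8 and 447 CPM in eWAT shiftwork libraries against 224, 230.2 and 235 in eWAT controls. Without the 2 iWAT controls, the iWAT median of class II was 0.42 and the depot median -0.07, and without the 3 eWAT libraries the eWAT median was 0.23. Of 22 interferon-response genes, 19 stood above 0 in iWAT and 20 in eWAT (medians 0.48 and 0.21). In iWAT the list summed to 548, 547 and 2310 CPM in shiftwork libraries and 744, 684 and 531 in controls. Only shiftwork replicate 3 stood above all controls in that sum. The iWAT median was 0.89 without the muscle library and 0.70 without the 2 iWAT controls. Without the 3 eWAT libraries the eWAT median was 0.54 and the depot median -0.06, in place of 0.17.

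Cholesterol synthesis genes had a median near 0 in iWAT and below 0 in eWAT. Of 23 tested, 11 were above 0 in iWAT, with a median of -0.000724, while 22 were below 0 in eWAT, with a median of -0.91 and 6 lower without overlap, beside 4.57% of all genes. The depot difference was above 0 for 22 of the 23, beside 50.9% of all genes (median 0.90), with 6 higher at an unadjusted p under 0.05, beside 3.68% of all genes. Msmo1 and Cyp51, enzymes of the sterol branch, had depot differences of 1.17 ± 0.41 and 1.47 ± 0.57. The 21 lipogenesis genes had medians below 0 in both depots (-0.28 in iWAT and -0.72 in eWAT), with 15 and 19 below 0. For that list the iWAT median was -0.96 without the 2 iWAT controls, and the depot median -0.39 in place of 0.27, and the iWAT median was -0.42 without the muscle library. Of the 18 lipolysis and lipid droplet genes, 13 stood above 0 in iWAT (median 0.34), and Angptl4, the secreted inhibitor of lipoprotein lipase, stood at 506, 656 and 537 CPM in iWAT shiftwork libraries against 97.7, 135 and 391 in iWAT controls. Without the 2 iWAT controls the lipolysis list had an iWAT median of -0.19 and Angptl4 a depot difference of 0.03 in place of 1.21 ± 0.78. Apln, the adipokine apelin, stood at 34.1, 49.98 and 39.9 CPM in iWAT shiftwork libraries and 14.7, 12.1 and 6.65 in iWAT controls, without overlap, and at 18.4, 30.9 and 11.9 CPM in eWAT shiftwork libraries and 15.9, 7.11 and 9.79 in eWAT controls. For Apln the depot difference was 1.08 ± 0.59, and 0.21 without the 3 eWAT libraries or 1.75 without the 2 iWAT controls. Leptin (Lep) overlapped in both depots (0.70 ± 0.48 in iWAT and 0.00 ± 0.48 in eWAT). Irs2, the insulin receptor substrate, was without overlap in opposite directions, at 89.9, 58.5 and 82.8 CPM in iWAT shiftwork libraries against 103, 110.1 and 119.9 in iWAT controls and 51.7, 54.8 and 31.1 CPM in eWAT shiftwork libraries against 28.8, 23.2 and 18.5 in eWAT controls. Its depot difference was -1.49 ± 0.36 (adjusted p 0.592 in limma, 0.00741 in DESeq2). Pik3r1, the regulatory subunit of PI3-kinase, had 1.73 ± 0.58 and Cebpb, an adipogenic factor, 1.59 ± 0.48, the second 0.95 without the 2 iWAT controls.

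Of 36 oxidative phosphorylation genes, 33 stood above 0 in iWAT and 34 below 0 in eWAT, by small amounts (medians 0.15 and -0.12), and 0 were without overlap in either depot. Scaling by total reads took the iWAT median to 0.000348, and leaving out the 2 iWAT controls took it to -0.33 and the depot median to -0.19 in place of 0.29. The iWAT median was 0.01 without the muscle library, and the eWAT median -0.04 without the 3 eWAT libraries. All 15 fatty acid oxidation genes stood above 0 in iWAT (median 0.27), with a median of 0.03 in eWAT. When the 2 iWAT controls were left out, 4 of the 15 stood above 0 in iWAT (median -0.34), and the depot median was -0.38 in place of 0.28. The eWAT median of this list was -0.10 without the 3 eWAT libraries. Cpt1a, which admits fatty acids to mitochondria, stood at 246, 177 and 202 CPM in iWAT shiftwork libraries and 138, 165 and 139 in iWAT controls. Of 33 ribosomal protein genes, 32 stood below 0 in iWAT (median -0.38) and 23 in eWAT (median -0.04), and without the 2 iWAT controls the iWAT median was 0.12 and the depot median 0.17 in place of -0.39. The eWAT median was 0.05 without the 3 eWAT libraries. Of 25 cell cycle genes, 11 stood above 0 in iWAT (median -0.08) and 22 in eWAT (median 0.79), and the eWAT median was 0.17 without the 3 eWAT libraries. Without the 2 iWAT controls, 21 of the 25 stood above 0 in iWAT (median 0.66), and the depot median was 0.23 in place of -0.69. The iWAT median was 0.10 without the muscle library. Mki67, the proliferation antigen, stood at 18.95, 15.97 and 56.5 CPM in eWAT shiftwork libraries and 17.2, 11.5 and 27.7 in eWAT controls, highest in the library with spermatid RNA. The 13 thermogenic genes tested had medians of 0.03 in iWAT and -0.05 in eWAT. The iWAT median was -0.62 without the 2 iWAT controls, with 2 of the 13 above 0, and -0.13 without the muscle library, and the eWAT median was -0.65 without the 3 eWAT libraries.

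**Figure D5:**
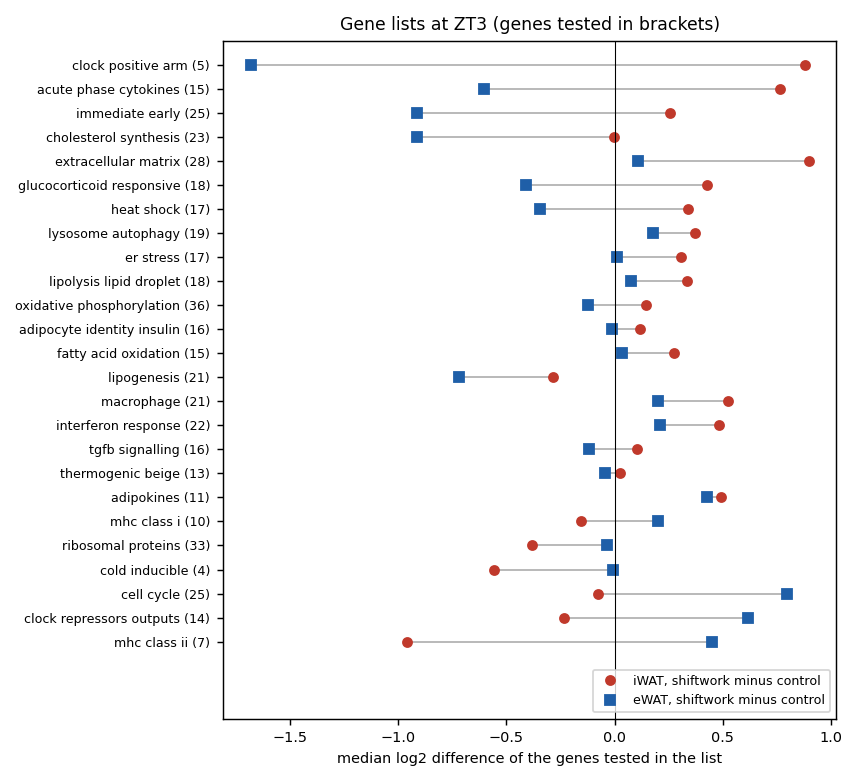
Median log2 difference between shiftwork and control over the genes tested in each list, in iWAT (circles) and eWAT (squares), ordered by the median depot difference. The first clock list is drawn as clock positive arm, although it also holds the repressors Nfil3 and Cry1. It lies above 0 in iWAT and below 0 in eWAT, as do the acute phase and cytokine, immediate early, glucocorticoid-responsive and heat shock lists. The second clock list (repressors and outputs) and the MHC class II genes lie the other way.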

How the data were processed

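RNA was purified with Trizol and columns and sequenced as single reads from an mRNA kit, per the labels' protocols. For eWAT the authors deposited whole-number read counts per gene symbol. For iWAT the authors deposited a signal per gene, read counts divided by a size factor per library: dividing by the smallest step gave whole reads for 100% of 310956 values (tolerance 1e-06). The authors' iWAT RPKM table, per the file headers, was used only for identifiers and for the authors' own log2 fold change and adjusted p-value. Tools listed in the submitters' processing notes are STAR and HTSeq, then DESeq2, edgeR and limma. Those notes list mm10 and GRCm38 as builds and state no version, role or strand setting, so antisense and overlapping genes cannot be told apart.

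Of 51826 iWAT identifiers, 51643 had a symbol of their own. The eWAT counts were divided by TMM size factors within their table. Genes kept by filterByExpr (minimum count 10, minimum total 15) in both tables entered limma 3.58.1 in R 4.3.3 (trend, robust) on log2(value + 1), with 12 libraries, 4 groups and 8 residual degrees of freedom. Fold changes on this scale understate low genes. Calls needed a Benjamini-Hochberg adjusted p under 0.05 over 13903 genes. A script run on simulated counts checked the fit. edgeR 4.0.16, DESeq2 1.42.0, scaling, pseudocounts, filters, library weights, a replicate block and libraries left out were alternatives. A gene with 3 reads stood at 0.0539 to 0.105 CPM in iWAT and 0.0415 to 0.147 in eWAT, before scaling (counting error only).

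Named genes are both clock lists, the 6 genes of at least 1 CPM with the widest gaps in each direction pair and each single depot and direction (other depot under 0.25), leaving out predicted genes, Riken clones, antibody and T cell receptor segments and marker genes, and up to 3 members per list with the smallest p. A few genes that the rule names are not reported here. The members, lists and rules were chosen with earlier results of these data known. All lists named in the text were summarised alike, and mitochondrially encoded genes had 0 of 9 members in both tables.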

Additional observations from a re-analysis of the deposited data

How the results depend on the processing

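Calls depended on the method. The counts for the depot difference, iWAT and eWAT were 0, 0 and 0 in the main fit, 159, 369 and 178 with DESeq2, 563, 1220 and 2167 with library weights (gene-by-gene estimation, since the default did not converge), 2, 5 and 0 with all 18 libraries, and 0, 0 and 0 with edgeR, both other pseudocounts, both other filters, both other scalings and the 3 sets of libraries left out for foreign tissue RNA. Leaving out 1 library at a time gave 0 to 135 calls for the depot difference, 0 to 407 for iWAT and 0 to 124 for eWAT. The highest came without iWAT control replicate 3, after which both remaining iWAT controls carried lymphocyte RNA (135 and 407, of which 379 lower), and without eWAT control replicate 2, after which both remaining eWAT controls carried vas deferens RNA (55 and 124). Without eWAT control replicate 1 the counts were 1, 0 and 4, and without eWAT shiftwork replicate 3 they were 0, 0 and 1. The cause was not tested. Fits without 1 library leave a group of 2, whose spread is taken from all groups. Those without the 3 eWAT libraries or the 2 iWAT controls leave only 1 control library in that depot.

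Genes with a gap of at least 0.5 in both depots numbered 3 in opposite and 2 in the same direction. These became 4 and 5 without a filter, 1 and 2 with scaling by total reads (which shifts the median depot difference of all genes to -0.145), 34 and 19 without the 3 eWAT libraries, 12 and 7 without the 2 iWAT controls, 3 and 4 without the muscle library, 126 and 88 for any gap above 0, and 0 and 0 for a gap of 1. Leaving out 1 library gave 3 to 12 and 2 to 13, and fewer libraries overlap less often by construction.

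Depot differences of 133 named genes kept their sign in all 26 alternatives for 111 genes. Signs turned, all at adjusted p above 0.05 in the main fit, as follows. Without the 3 eWAT libraries the difference was 0.074 for Abcc3, -0.096 for Hrh2, 0.0090 for Il34, -0.11 for Ilvbl, -0.71 for Nrn1, -0.064 for Prdm10, -0.34 for Slc25a29 and 1.36 for Usp2. Without the 2 iWAT controls it was -0.46 for Lrtm1, 0.017 for Nlrc5, -0.075 for Pdk4, 1.27 for Slc18a1 and -0.069 for Trem2. Without the muscle library it was -0.050 for Cry1, -0.49 for Hfe2 and -0.49 for Lrtm1. With library weights it was 0.10 for Fam20a, -0.021 for Nampt, 0.19 for Slc18a1, 1.69 for Usp2, -0.050 for Vav3 and 0.29 for Wee1. Over single libraries left out, the range ran for AA467197 from -2.26 to 0.15, Cry1 from -0.12 to 0.52, Fam20a from -0.26 to 0.056, Hfe2 from -0.49 to 3.67, Lrtm1 from -0.49 to 1.84, Ppara from -0.68 to 0.0081, Rtp4 from -0.22 to 1.05, Slc18a1 from -0.68 to 0.43, Usp2 from -0.78 to 1.19 and Wee1 from -0.82 to 0.086.

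Replicate numbers were not taken as pairs in the main fit. Deviations of same-numbered shiftwork and control libraries correlated at -0.185, -0.188 and -0.029 in iWAT and at -0.214, 0.394 and 0.272 in eWAT. Those of differently numbered libraries ran from -0.366 to 0.296 over both depots. Deviations from a mean of 3 libraries sum to 0, so these correlations cannot tell whether samples were paired. With a replicate block within each depot the calls were 0 for the depot difference, 0 for iWAT and 0 for eWAT, and no call changed. Groups of 3 and a median spread of 0.219 to 0.377 (SD, log2) limit what could be called.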

Other observations

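Several genes outside the rule were among the 15 with the smallest p for the depot difference, and were chosen after their values were seen. Phlda1, a pleckstrin homology domain protein, stood at 19.9, 21.8 and 30.8 CPM in iWAT shiftwork libraries against 13.3, 13.5 and 18.2 in iWAT controls and 9.48, 7.69 and 8.497 CPM in eWAT shiftwork libraries against 22.3, 27.6 and 37.04 in eWAT controls, without overlap in opposite directions, and its depot difference was 2.41 ± 0.34 (adjusted p 0.156 in limma, 7.82e-07 in DESeq2). Adamts1, a metalloprotease related to Adamts4, stood at 93.8, 158 and 117 CPM in iWAT shiftwork libraries against 84.7, 49.5 and 60.3 in iWAT controls and 66.6, 105 and 52.2 CPM in eWAT shiftwork libraries against 139, 332 and 407 in eWAT controls, also without overlap in opposite directions, with a depot difference of 2.82 ± 0.58 (adjusted p 0.578 in limma). Gadd45g, a stress-induced growth arrest gene, and Lins1 had depot differences of 1.41 ± 0.27 and 1.20 ± 0.24. Pdcd4, an inhibitor of translation initiation, ran the other way, at 52.01, 54.7 and 44.9 CPM in iWAT shiftwork libraries against 94.1, 97.4 and 68.7 in iWAT controls and 131, 115 and 146 CPM in eWAT shiftwork libraries against 111, 88.8 and 91.95 in eWAT controls.

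Hoxc10, a posterior patterning gene of subcutaneous fat, stood at 60.2, 35.2 and 30.95 CPM in iWAT shiftwork libraries against 25.3, 22.1 and 29.6 in iWAT controls. In eWAT it stood at 0.0962, 0.197 and 0.5098 CPM in shiftwork libraries against 1.96, 2.404 and 3.001 in controls. For the eWAT shiftwork libraries, 3 reads are 0.135 to 0.147 CPM before scaling. Siglech, a receptor of plasmacytoid dendritic cells, stood at 2.41, 1.88 and 1.49 CPM in iWAT shiftwork libraries against 18.1, 28.4 and 8.64 in iWAT controls, and the 2 highest were the controls with lymphocyte RNA. In eWAT it stood at 2.55, 1.92 and 3.31 CPM in shiftwork libraries against 2.06, 1.67 and 1.67 in controls. Arhgap20, a GTPase-activating protein, and Fam78b had depot differences of 1.93 ± 0.38 and 2.45 ± 0.49 (adjusted p 0.578 each in limma).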
